A study of Brassica rapa with 36 samples.

Results

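The 200 genes described here were the most abundant of the Brassica rapa gene IDs that had a high level in very early microspore-derived embryos and a low level in every other sampled tissue. They were chosen from the counts themselves. Counts were scaled to the library's sum of gene counts (CPM, the usual unit of scaled counts), and a gene was kept when its median over the 9 embryo libraries was at least 50 CPM and its mean was under 20 CPM in each leaf and microspore group and in the pollen library. Of 47135 gene IDs, 239 met both conditions, and the 200 with the highest embryo median were kept. The difference between embryos and the other tissues was therefore set by the choice and is given below as a description, with no test.

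RNA was sequenced from the line K2, described by the submitters as inducible, and from 49CX, described as non-inducible. The groups, each of 3 libraries, were 2-cell, 4-cell and 8-cell embryos of K2, heat-shocked microspores of K2 and of 49CX, microspores of each line without heat shock, late unicellular microspores of each line, stalk leaves of each line, and K2 pollen taken at flowering. All libraries were made from lysed isolated cells with a low-input, strand-specific protocol. The labels do not say how warm or how long the heat shock was, how many cells went into a library, or whether the replicates are separate plants or cultures. All p-values given here therefore speak of the spread among these libraries, and part or all of that spread may be technical. Of the 36 samples, 34 had gene counts. In the files of K2 pollen replicates 2 and 3 all genes are at 0, which leaves 1 pollen library.

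Microspores are the immature, haploid cells of the anther that normally become pollen. After a stress such as heat, microspores of responsive Brassica genotypes can leave that path and divide as embryos, a route called androgenesis or microspore embryogenesis, which plant breeders use to obtain doubled haploid lines. In the embryo route the first divisions give a small cluster of cells inside the microspore wall, and the tissue layers and poles of the embryo are laid down later. The IDs of the 200 genes are not paired with names, and 0 of the 47135 IDs matched the RefSeq gene table of assembly CAAS_Brap_v3.01, so no gene is given a name, a function or a sequence here. Gene lengths are not known either, so CPM values compare 1 gene between libraries, and a higher CPM of 1 gene than of another is not a higher level per length.

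The embryo libraries were shallow and uneven. Gene counts were 170479, 164510 and 6021 in the 2-cell libraries, 8549, 31333 and 37097 in the 4-cell libraries, and 70395, 74609 and 126154 in the 8-cell libraries, against 85651 to 1179935 in the other 25 libraries. A single count was worth 166 CPM in 2-cell replicate 3 and 117 CPM in 4-cell replicate 1, so a gene at 50 CPM was mostly read as 0 in those 2 libraries, and a value of 0 there allows up to 498 and 351 CPM (3 counts). A pollen list had 409 IDs with at least 200 CPM in the pollen library and under 20 CPM in K2 leaves and late microspores. Other groups were not limited, and 74 of the IDs had an embryo median of at least 50 CPM. The genes of this list held 51.8% of gene counts in the pollen library. They held 0.348%, 12.01% and 6.64% in the 2-cell libraries, 4.11%, 0.932% and 4.26% in the 4-cell libraries, and 0.320%, 0.905% and 15.2% in the 8-cell libraries. A leaf list of 51 IDs made in the same way held 0.117% to 0.727% in embryo libraries, against 1.58% ± 0.300 (SD, n = 3) in K2 leaves. None of the 200 genes was in either list, which the choice itself ensures, and the part of these signals in the results below was not tested beyond the values given without the 2 libraries highest in the pollen list.

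The 200 genes held between 2.84% and 6.10% of all gene counts in each embryo library. The share was 3.85%, 3.81% and 4.999% in the 2-cell libraries, 4.60%, 4.27% and 2.84% in the 4-cell libraries, and 4.24%, 6.10% and 3.37% in the 8-cell libraries. The 3 stages overlapped, at 4.22% ± 0.673, 3.90% ± 0.933 and 4.57% ± 1.39 (SD, n = 3 each). In the shallowest library, 2-cell replicate 3, the exact Clopper-Pearson 95% interval was 4.46% to 5.58%, nearly as wide as the range of the 3 libraries of that stage. Intervals and floors speak of counting alone, because PCR copies of a molecule were not marked.

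Outside embryos the same genes held far less, but not nothing. Heat-shocked K2 microspores had 0.201%, 0.134% and 0.152%, against 0.0778%, 0.0731% and 0.0623% in unheated K2 microspores. Late K2 microspores had 0.0572% ± 0.0162 and K2 leaves 0.0553% ± 0.00966 (SD, n = 3 each), and the pollen library had 0.0118%, with a 95% interval of 0.00647% to 0.0199%. In 49CX the share was 0.0466% ± 0.0141 in heated microspores, 0.0260% ± 0.00807 in unheated microspores, 0.0763% ± 0.0172 in late microspores and 0.0406% ± 0.00633 in leaves (SD, n = 3 each). Heated K2 microspores were thus the highest of the groups without embryos, and all 3 of their libraries lay above the libraries of every other such group.

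**Figure D1:**
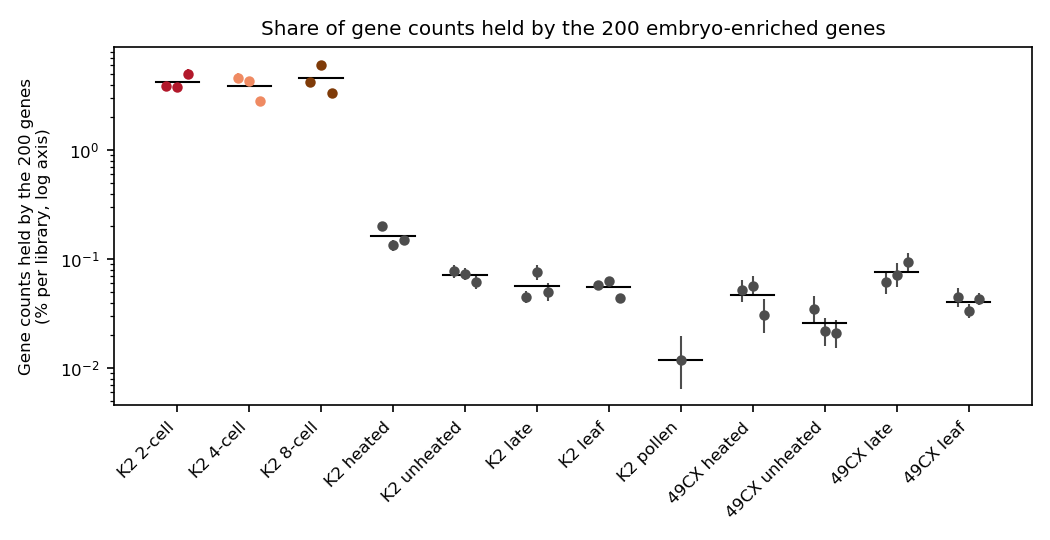
Share of each library's gene counts held by the 200 genes, in percent on a log axis; points are libraries with exact 95% counting intervals and lines are group means. The 9 embryo libraries sit between 2.84% and 6.10%, and the 3 heated K2 microspore libraries between 0.134% and 0.201%, above the other groups.

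The genes are therefore better called embryo-enriched than found in embryos only. Each of the 200 had at least 1 count outside the embryos, and 0 were silent there. Their total over the 25 other libraries ranged from 1 to 103 counts, with a median of 20, and a gene was seen in 1 to 22 of those libraries, with a median of 10. Heated K2 microspores held counts of 188 of the 200 genes, unheated K2 microspores of 164, late K2 microspores of 147, K2 leaves of 123 and the pollen library of 13. In 49CX the numbers were 96 in heated microspores, 75 in unheated microspores, 130 in late microspores and 143 in leaves. Heated K2 microspores were the highest group outside embryos for 108 of the genes, and for 77 genes their mean was at least 10 CPM. These libraries are deeper than most embryo libraries, so the numbers of genes seen were also read after thinning every library to 6000 gene counts. The 200 genes then gave 100, 97 and 98 with a count in the 2-cell libraries, 76, 111 and 84 in the 4-cell libraries and 104, 121 and 100 in the 8-cell libraries. Heated K2 microspores gave 15 ± 6.25, unheated K2 microspores 4 ± 3.46, late K2 microspores 2.67 ± 0.577 and K2 leaves 1.67 ± 1.53 (SD, n = 3 each). The pollen library gave 1. In 49CX heated microspores gave 2.33 ± 2.52, unheated microspores 1 ± 1.73, late microspores 5 ± 4.58 and leaves 1 ± 1 (SD, n = 3 each). The order of the 49CX groups by genes seen thus changed once depth was equal.

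The genes' embryo medians ran from 56.8 to 1924 CPM, with quartiles of 71.3, 93.9 and 145 CPM. At least 100 CPM was reached by 85 of them, 200 CPM by 30 and 1000 CPM by 1. At the lower edge of the list, the last genes kept were BraC09g018630.1 and BraC09g064870.1, both at a median of 56.8 CPM, and the first not kept, because 200 had been reached, were BraC02g042900.1 and BraC03g049530.1 at 55.5 CPM. The 2 lowest genes that met both conditions were BraC03g048980.1 and BraC08g027560.1 at 52.8 CPM, and BraC01g012370.1 and BraC02g015530.1 fell short at 48.6 CPM. At the upper limit in the other tissues, BraC01g019990.1 and BraC06g025220.1 were kept with a highest group mean of 19.8 CPM, and BraC05g033350.1 and BraC04g027620.1 were not, at 20.04 and 20.09 CPM.

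Single libraries varied widely around these medians. A gene's highest embryo value was between 1.13 and 58.0 times its median, and 3.13 times for the middle gene. A count was present in all 9 embryo libraries for 20 genes, in 8 for 87, in 7 for 78, in 6 for 13 and in 5, the fewest that a median above 0 allows, for 2. The highest value of a gene fell in 2-cell replicate 3 for 40 genes and in 4-cell replicate 1 for 29, so the 2 shallowest libraries held the highest value of 69 of the 200. The 10 most counted of the genes made up 26.0% to 53.4% of the genes' counts in a library, and they were led by 6 different genes across the 9 libraries.

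BraC08g021050.1 had the highest embryo median. It stood at 1924, 833 and 166 CPM in 2-cell embryos, 8773, 5681 and 1402 CPM in 4-cell embryos and 3424, 4503 and 1379 CPM in 8-cell embryos, with 15 counts in all outside embryos. The 4-cell and 8-cell ranges overlapped each other, and both reached below the highest 2-cell library; 2-cell replicate 3 rests on 1 count. BraC01g016230.1, found by its likeness, followed it most closely of the 200 genes over the 9 libraries, with Spearman's rho of 0.983, at 598, 292 and 0 CPM in 2-cell embryos, 3392, 1692 and 485 CPM in 4-cell embryos and 1009, 1153 and 262 CPM in 8-cell embryos. In all, 8 genes had a rho of at least 0.9 with BraC08g021050.1.

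BraC02g034320.1 and BraC02g034310.1, next in rank, carry consecutive IDs and varied between libraries of the same stage more than between stages. BraC02g034320.1 had 17.6, 2219 and 2657 CPM in 2-cell embryos, 1521, 95.7 and 647 CPM in 4-cell embryos and 185, 938 and 951 CPM in 8-cell embryos. BraC02g034310.1 had 5.87, 2918 and 1163 CPM in 2-cell embryos, 819, 128 and 782 CPM in 4-cell embryos and 142, 2332 and 935 CPM in 8-cell embryos. Both were lowest in 2-cell replicate 1, 4-cell replicate 2 and 8-cell replicate 1 among the libraries of their stage, and the ranges of the 3 stages overlapped. Whether the 2 IDs are near-identical copies that share reads cannot be read from the deposited counts.

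BraC07g020240.1, the fourth, was spread more evenly. Its level was 416, 371 and 664 CPM in 2-cell embryos, 0, 638 and 377 CPM in 4-cell embryos and 739, 1273 and 991 CPM in 8-cell embryos. All 8-cell libraries lay above all others. The genes whose lowest value over the 9 libraries was the largest part of their median were BraC08g012810.1 and BraC07g021140.1. BraC08g012810.1 had 217 ± 47.9 CPM in 2-cell embryos, 233 ± 9.62 CPM in 4-cell embryos and 211 ± 73.8 CPM in 8-cell embryos (SD, n = 3 each), and its lowest library was still at 0.55 of its median. BraC07g021140.1 had 131 ± 39.7, 147 ± 78.4 and 169 ± 73.5 CPM in the same order (SD, n = 3 each).

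Some genes lay mostly at 1 stage. The highest stage mean was at the 2-cell stage for 71 genes (35.5%), at the 4-cell stage for 46 (23.0%) and at the 8-cell stage for 83 (41.5%). Among the other 3025 genes with an embryo median of at least 50 CPM these shares were 39.1%, 28.6% and 32.3%. More than 50% of the sum of the 3 stage means came from the 2-cell stage for 47 of the 200 genes, from the 4-cell stage for 27 and from the 8-cell stage for 43. Because a single high library can set a stage mean, the named examples had at least 3 counts in each of the 3 libraries of their stage, which 21 genes met at the 2-cell stage, 25 at the 4-cell stage and 157 at the 8-cell stage.

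At the 2-cell stage the examples were BraC03g028550.1 and BraC01g045790.1. BraC03g028550.1 had 1443, 353 and 5979 CPM in 2-cell embryos, 0, 0 and 108 CPM in 4-cell embryos and 71.0, 0 and 103 CPM in 8-cell embryos, so that 96.5% of its stage means lay at the 2-cell stage and no later library reached the lowest 2-cell library. BraC01g045790.1 had 2247, 334 and 830 CPM in 2-cell embryos, 0, 31.9 and 162 CPM in 4-cell embryos and 71.0, 0 and 15.9 CPM in 8-cell embryos. It too was separated from both later stages. The genes most like BraC03g028550.1 across libraries were BraC03g008270.1 (rho 0.953) and BraC08g026580.1 (rho 0.949).

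At the 4-cell stage the examples were BraC04g028070.1 and BraC03g015300.1, which followed each other with a rho of 0.983. BraC04g028070.1 had 0, 72.9 and 0 CPM in 2-cell embryos, 1521, 319 and 216 CPM in 4-cell embryos and 85.2, 362 and 47.6 CPM in 8-cell embryos. BraC03g015300.1 had 0, 18.2 and 0 CPM in 2-cell embryos, 702, 160 and 108 CPM in 4-cell embryos and 85.2, 214 and 23.8 CPM in 8-cell embryos. For both, every 4-cell library lay above every 2-cell library, and 8-cell replicate 2 lay within the 4-cell range. The highest value of each was in 4-cell replicate 1, where it rests on 13 and 6 counts.

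At the 8-cell stage the examples were BraC07g027650.1 and BraC01g008860.1. BraC07g027650.1 was higher at each later stage, at 0, 24.3 and 0 CPM in 2-cell embryos, 234, 543 and 162 CPM in 4-cell embryos and 3821, 4611 and 1030 CPM in 8-cell embryos, with no overlap between any 2 stages. Its counts were 0, 4 and 0 in the 2-cell libraries, 2, 17 and 6 in the 4-cell libraries and 269, 344 and 130 in the 8-cell libraries. BraC01g008860.1 had 29.3, 60.8 and 0 CPM in 2-cell embryos, 0, 63.8 and 80.9 CPM in 4-cell embryos and 511, 1287 and 127 CPM in 8-cell embryos. Its 8-cell libraries also lay above all the earlier ones. The genes nearest in pattern to BraC07g027650.1 were BraC06g004770.1 (rho 0.95) and BraC03g049220.1 (rho 0.946).

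**Figure D2:**
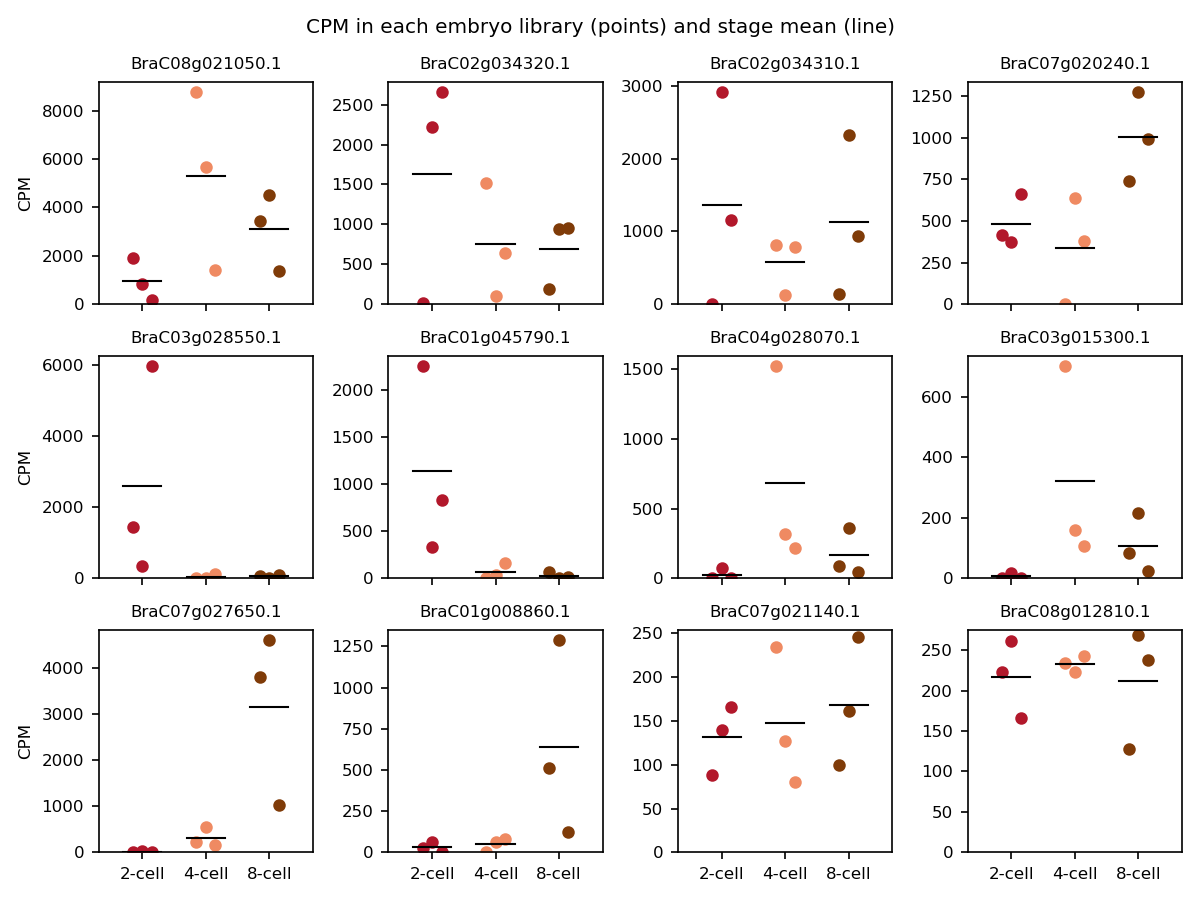
CPM of 12 of the named genes in each embryo library (points, replicates 1 to 3 from left to right within a stage) with the stage mean (line); each panel has its own axis from 0. BraC07g027650.1 has its 3 8-cell libraries at 1030 to 4611 CPM above all earlier ones, whereas BraC02g034320.1 spans 17.6 to 2657 CPM within the 2-cell stage.

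Stage differences were tested because the choice used the median over all 9 embryo libraries and not a contrast of stages. With edgeR's quasi-likelihood test on the 9 embryo libraries, 1566 genes passed the low-count filter. Of the 200 genes, 123 passed and 77 did not. At a Benjamini-Hochberg adjusted p under 0.05, 0 of the 123 were called for 4-cell over 2-cell, 0 for 8-cell over 4-cell and 0 for 8-cell over 2-cell embryos, where 0% of all tested genes were called in each comparison. At an unadjusted p under 0.05 the numbers were 34 of 123 (23 higher and 11 lower at the 4-cell stage; background 9.2% of all tested genes), 5 (4 higher and 1 lower at the 8-cell stage; background 3.45%) and 39 (31 higher and 8 lower at the 8-cell stage; background 7.28%). The tested genes are not a fair sample of the 200, since a gene could pass the filter through the stage at which it was high. Without the filter all 200 were fitted, and the directions for 4-cell over 2-cell embryos turned: at an unadjusted p under 0.05, 14 genes were higher and 40 lower at the 4-cell stage (background 8.1% of all genes fitted, in either direction), with a median log2 fold change of -0.68 over the 200 genes, against 0.52 over the 123. In the same unfiltered fit 30 genes were higher and 1 lower for 8-cell over 4-cell embryos (background 5.68%), and 31 were higher and 13 lower for 8-cell over 2-cell embryos (background 4.64%). The background of this fit was all 33556 gene IDs with at least 1 count in an embryo library. These were not matched to the 200 genes in level, so a larger share among the 200 is not in itself a trait of them.

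BraC07g027650.1 came nearest to the threshold among the named genes, with a log2 fold change of 7.85 for 8-cell over 2-cell embryos (SE 1.51, edgeR adjusted p = 0.0956). It was called when 8-cell replicate 3 was left out (edgeR adjusted p = 0.0434), where 4 of all 1382 tested genes were called. It was also called when the 2 libraries highest in the pollen list were left out (edgeR adjusted p = 0.0219), where 2 of all 711 tested genes were called. For the 2-cell genes the 8-cell over 2-cell log2 fold change was -5.15 for BraC01g045790.1 (SE 1.49, edgeR adjusted p = 0.257) and -4.69 for BraC03g028550.1 (SE 1.59, edgeR adjusted p = 0.431). For the 4-cell genes the 4-cell over 2-cell log2 fold change was 4.50 for BraC03g015300.1 (SE 1.23, edgeR adjusted p = 0.213) and 3.84 for BraC04g028070.1 (SE 1.33, edgeR adjusted p = 0.337). None of these differences passed the test.

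The calls depended on the tool. DESeq2's Wald test was run on the genes that passed the filter, 123 of the 200 among them. For 4-cell over 2-cell embryos it called 17 of the 123 (12 higher, where 2.17% of all tested genes were, and 5 lower, where 1.66% were). It called 0 for 8-cell over 4-cell embryos (0.0639%) and 16 for 8-cell over 2-cell embryos (12 higher, background 2.04%, and 4 lower, background 1.4%). The rest of the 200 were not tested, and the limit of the filter given above holds here too. A single edgeR fit also held K2 late and heated microspores and pollen, whose libraries spread less, and it tested all 200 genes. For 4-cell over 2-cell embryos it called 14 (4 higher, background 0.131% of 13023 genes, and 10 lower, background 0.745%). For 8-cell over 4-cell embryos it called 1 (background 0.0154%), and for 8-cell over 2-cell embryos 18 (15 higher, background 0.445%, and 3 lower, background 0.369%). Of these, 9, 0 and 13 were also called by DESeq2. That joint fit assumes that the lone pollen library varies like the other groups. The choice of the 200 genes held them low in the microspores and pollen added, which bears on their fitted spread. With a group of 1 library, a gene could also pass its low-count filter through a single high embryo library. Its calls are therefore given as a description of that fit. The 1 gene it called for 8-cell over 4-cell embryos was BraC01g008860.1, named above for the 8-cell stage (log2 fold change 4.08, SE 0.855, edgeR adjusted p = 0.0430). Without the low-count filter edgeR called 0, 0 and 4, where 0%, 0% and 0.0983% of all genes were called. Those 4, picked out here after their values were seen, were BraC07g027650.1, BraC09g072610.1, BraC03g015730.1 and BraC06g004770.1. Their adjusted p values were 0.00832, 0.0271, 0.0297 and 0.0475 in edgeR for 8-cell over 2-cell embryos. Both other fits called them as well, but on the same embryo libraries, so this is not separate support. The background genes of the joint and unfiltered fits were not matched to the 200 genes in level.

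BraC03g015730.1 had 11.7, 0 and 0 CPM in 2-cell embryos, 2573, 223 and 297 CPM in 4-cell embryos and 923, 791 and 270 CPM in 8-cell embryos. BraC09g072610.1 had 0, 6.08 and 0 CPM, then 1521, 255 and 162 CPM, then 384, 710 and 190 CPM at the same stages. Both rested on 2 counts or fewer in 2-cell embryos, and both had every 4-cell and 8-cell library above every 2-cell library. BraC06g004770.1 had 0, 12.2 and 0 CPM in 2-cell embryos, 234, 351 and 53.9 CPM in 4-cell embryos and 384, 724 and 111 CPM in 8-cell embryos.

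The separation of libraries needs no model and covers all 200 genes. Zeros take part in it, since 98 and 83 of the genes had a count in 2-cell replicate 3 and 4-cell replicate 1. The 3225 genes used as background here were not matched to the 200 in level. Every 4-cell library lay above every 2-cell library for 25 genes (12.5%; background 5.21% of the 3225 genes with an embryo median of at least 50 CPM) and below for 27 (13.5%; background 8.99%). From the 4-cell to the 8-cell stage, 15 genes lay above (7.5%; background 7.69%) and 4 below (2.0%; background 3.63%), which is near the background. Every 8-cell library lay above every 2-cell library for 39 genes (19.5%; background 7.5%) and below for 19 (9.5%; background 6.36%). The median log2 ratio of stage means over the 200 genes, with a stage at 0 set to 3 counts over the stage, was -0.06 for 4-cell over 2-cell embryos (-0.18 over the 3225 genes), 0.55 for 8-cell over 4-cell (0.23) and 0.55 for 8-cell over 2-cell embryos (0.04). With TMM-scaled CPM 29 genes lay above and 22 below for 4-cell over 2-cell embryos (background 6.48% and 7.16%), so the balance between the 2 directions turned with the scaling, and for 8-cell over 2-cell embryos 44 lay above and 17 below (background 8.96% and 4.84%). For 4-cell over 2-cell embryos the direction also turned with the fit: by unadjusted p more of the 123 tested genes were higher than lower in the edgeR fit of embryos, more of all 200 were lower than higher when the filter was left out, and more were called lower than higher in the fit with microspores and pollen.

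**Figure D3:**
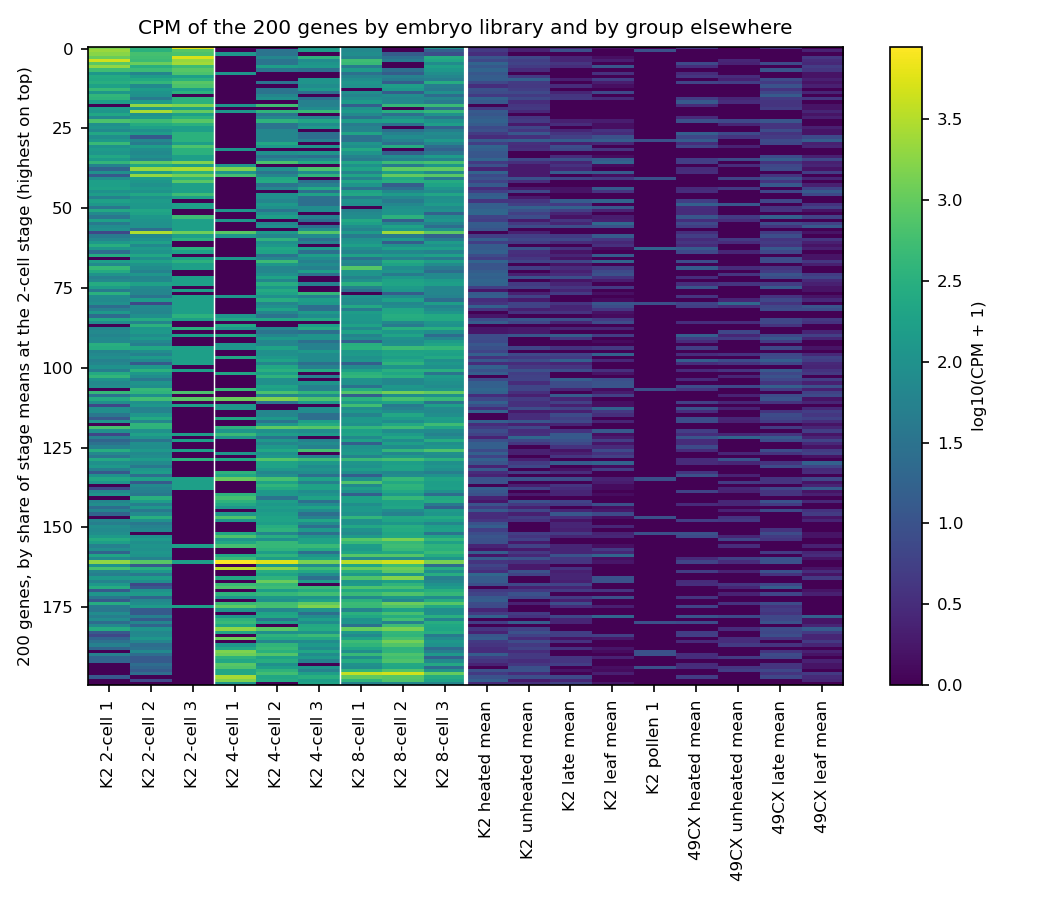
log10(CPM + 1) of the 200 genes (rows, ordered by the share of their stage means at the 2-cell stage, highest on top) in the 9 embryo libraries and as means of the other groups; K2 pollen is 1 library. Dark rows in 2-cell replicate 3 and 4-cell replicate 1, with 98 and 83 genes seen, show the zeros of the 2 shallowest libraries, and heated K2 microspores are the brightest column outside embryos.

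Libraries of the 2-cell stage stood apart from the later ones in how the 200 genes ranked. Spearman's rho of CPM over the 200 genes was 0.27 to 0.45 within the 2-cell stage, 0.27 to 0.33 within the 4-cell stage and 0.40 to 0.45 within the 8-cell stage. Between 4-cell and 8-cell libraries it was 0.23 to 0.65, with a median of 0.37. Between 2-cell and 4-cell libraries it was -0.25 to 0.19, with a median of -0.03, and between 2-cell and 8-cell libraries -0.23 to 0.22, with a median of -0.004. For the other 3025 genes with an embryo median of at least 50 CPM the median between 2-cell and 8-cell libraries was 0.37, between 2-cell and 4-cell libraries 0.17 and between 4-cell and 8-cell libraries 0.31. These values describe the 36 pairs of 9 libraries, which share sparse counts and uneven depth. The 200 genes were chosen by their median over these same 9 libraries, which constrains how the libraries can rank them. The 3025 genes were not matched to the 200 in median, and the difference between the gene groups was not tested.

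**Figure D4:**
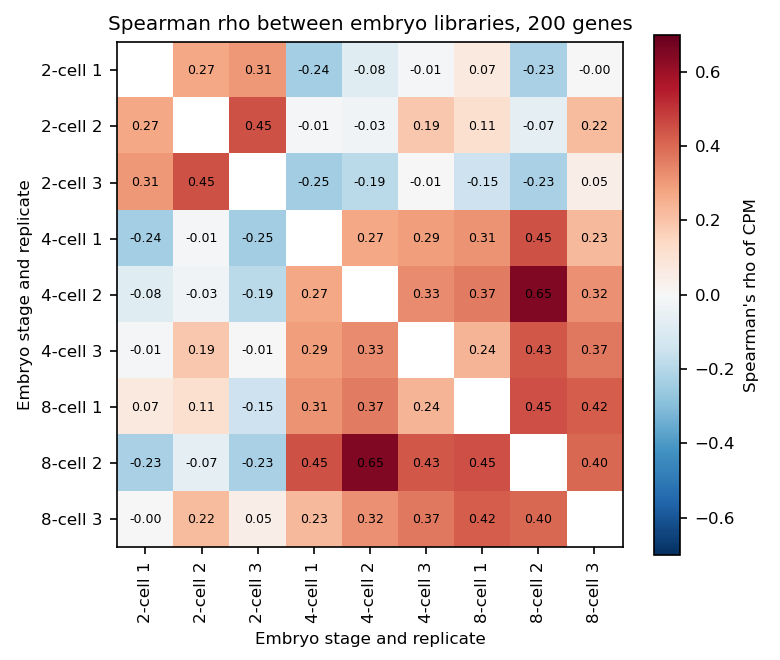
Spearman's rho of CPM over the 200 genes for each pair of embryo libraries (stage and replicate on both axes, colour from -0.7 to 0.7). Pairs within a stage and 4-cell with 8-cell pairs are all positive, at 0.23 to 0.65, whereas 2-cell libraries have values of -0.25 to 0.22 with later libraries.

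The level of such a list in the embryo stage that did not choose it can be read by leaving that stage out. When the 200 genes were chosen again with the same conditions from the other 2 stages alone, 98 (49.0%) had a median of at least 50 CPM in the 2-cell libraries, 107 (53.5%) in the 4-cell libraries and 151 (75.5%) in the 8-cell libraries. The median gene of these lists stood at 48.6, 53.9 and 85.2 CPM in the stage left out. These shares were not taken for genes chosen without the limit in the other tissues, so they have no background. The stages also differed in depth. The shallowest 2-cell library had 6021 gene counts and the shallowest 4-cell library 8549, against 70395 in the shallowest 8-cell library. Of the 200 genes described here, 152, 165 and 160 were in the lists made without the 2-cell, 4-cell and 8-cell stage.

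Heat shock is the step before embryo formation, and heated and unheated microspores were compared within each line. The choice held both groups under a mean of 20 CPM but did not contrast them. In K2 the mean of 149 of the 200 genes was higher in heated than in unheated microspores, that of 48 was lower and that of 3 was equal. In 49CX 81 were higher, 40 lower and 79 equal, most of the last at 0 in both groups. The same counts were not taken over all genes, so these numbers have no background. Library-size scaling, used for these means, put the median log2 fold change of all tested genes at 0.37 in K2 and 0.23 in 49CX. In bulk samples more cells with a transcript and more transcript per cell cannot be told apart. The pollen list held 0.364% ± 0.0370 of gene counts in heated K2 microspores, against 3.61% ± 0.0590 in unheated K2 microspores (SD, n = 3 each). The leaf list moved in the same direction as the 200 genes. It held 0.128% ± 0.0305 in heated K2 microspores, against 0.0423% ± 0.00608 in unheated K2 microspores (SD, n = 3 each), with no overlap, while the 200 genes held 0.162% ± 0.0349 and 0.0711% ± 0.00799 (SD, n = 3 each). In 49CX the leaf list held 0.0400% ± 0.00692 in heated microspores, against 0.0148% ± 0.000678 in unheated microspores, and the pollen list 11.4% ± 0.520 and 12.4% ± 0.414 (SD, n = 3 each). The part of either list in the heat result was not tested.

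**Figure D5:**
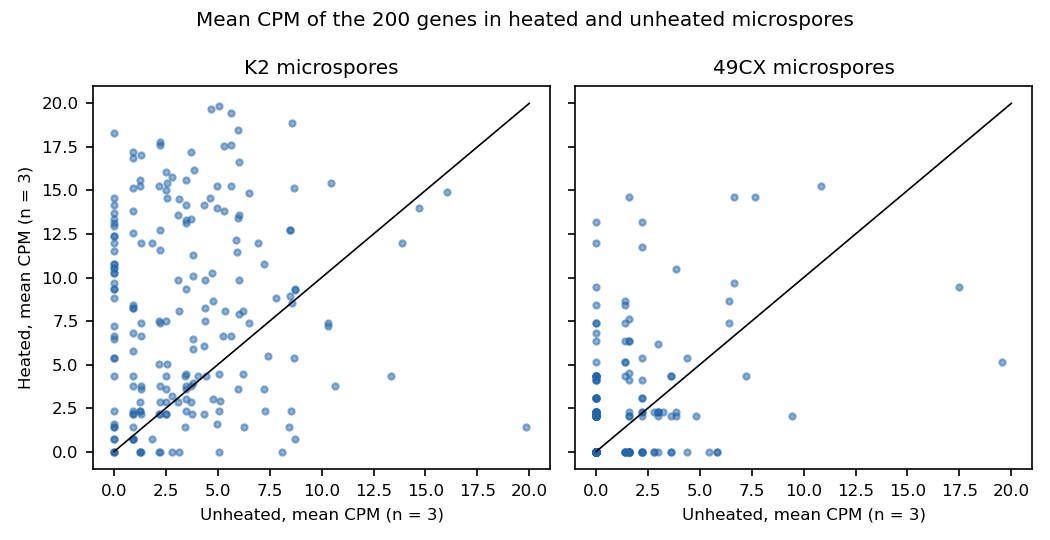
Mean CPM (n = 3 libraries each) of the 200 genes in heated microspores (vertical axis) against unheated microspores (horizontal axis), for K2 on the left and 49CX on the right, with the line of equal values. In K2, 149 points lie above the line and 48 below. In 49CX, 81 lie above and 40 below. The same counts were not taken over all genes.

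At these levels the tests had little to work with. In edgeR's fit of the 18 microspore libraries, 9376 genes passed the low-count filter and none of the 200 was among them, so the fit gave no test of these genes (56.4% of the tested genes were called for heat in K2, 9.32% in 49CX and 25.1% for the difference between the lines). Without the filter, 199 of the 200 could be fitted among 45011 genes, which were not matched to them in level. For heated over unheated K2 microspores 19 were then called higher (9.55% of the 199; background 7.39%) and 2 lower (1.01%; background 8.46%) by edgeR's quasi-likelihood test at an adjusted p under 0.05, and 39 were higher and 5 lower at an unadjusted p under 0.05 (22.1% of the 199; background 26.1% in either direction). In 49CX 0 were called (background 1.28%), with 4 at an unadjusted p under 0.05 (2.01%; background 7.37%). For the difference of the heat effects between K2 and 49CX 0 were called (background 4.19%), with 10 (4 higher and 6 lower) at an unadjusted p under 0.05 (5.03%; background 12.5%), so a difference between the lines was not shown. The K2 count rested on single libraries. Without heated replicate 1, the deepest of the 6 libraries, 3 genes were called higher (1.52%; background 5.82%), and without unheated replicates 1, 2 and 3 the numbers were 6, 8 and 6 (3.02%, 4.02% and 3.02%; background 6.87%, 7.33% and 7.02%). In these 4 fits the share of the genes called higher was below that of all genes. Without heated replicates 2 and 3 it was 18 and 15 genes (9.05% and 7.58%; background 6.93% and 6.83%).

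All 3 heated libraries lay above all 3 unheated libraries for 44 of the 197 genes with a count there (22.3%; background 7.65% of 28302 genes with both means under 20 CPM) and below for 2 (1.02%; background 5.78%). The 200 genes had a median of 10.5 counts over the 6 libraries and the background genes 6, so the 2 sets were not equally deep. CPM by library size moved the median of all tested genes up by 0.37 (log2) in heated K2 and by 0.23 in heated 49CX microspores, against 0.01 and -0.01 with TMM. With TMM-scaled CPM the K2 means were higher for 136 genes and lower for 61, and the separated genes were 32 above (16.2%; background 4.81%) and 2 below (1.02%; background 7.55%). In 49CX 7 of 121 lay above (5.79%; background 5.03%) and 0 below (background 1.15%), which is near the background.

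The 2 genes with the highest level in heated K2 microspores were BraC01g019990.1 and BraC01g034650.1. BraC01g019990.1 had 12.97, 33.6 and 12.96 CPM in heated K2 microspores, against 11.5, 0 and 3.73 CPM in unheated K2 microspores, and it was at 0 in all heated and unheated 49CX libraries. In embryos it stood at 46.9, 36.5 and 0 CPM at the 2-cell stage, 0, 191 and 80.9 CPM at the 4-cell stage and 142, 121 and 285 CPM at the 8-cell stage. BraC01g034650.1 had 12.97, 28.8 and 17.3 CPM in heated K2 microspores, against 0, 2.78 and 11.2 CPM in unheated K2 microspores. In both genes the heated libraries did not overlap the unheated ones, and they rest on 16 counts in heated libraries against 4 in unheated libraries each; neither was among the genes called.

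Of the genes called in K2 without the filter, the 2 raised most and the 2 lowered most are given. BraC10g003660.1 had 36.7, 9.60 and 8.64 CPM in heated K2 microspores, on 17, 2 and 2 counts, and was at 0 in all unheated K2 libraries and in all heated and unheated 49CX libraries (edgeR adjusted p = 0.00281 for K2). BraC02g022940.1 had 30.3, 4.80 and 8.64 CPM in heated K2 microspores, on 14, 1 and 2 counts, and was at 0 in all unheated K2 libraries (edgeR adjusted p = 0.00664). In 49CX it had 20.4 CPM in heated replicate 1, on 3 counts, and 0 in the other 5 heated and unheated libraries. In both genes, heated K2 replicate 1 held most of the counts. The 2 that fell were BraC06g025220.1 and BraC03g015300.1. BraC06g025220.1 had 4.32, 0 and 0 CPM in heated K2 microspores, against 30.7, 13.9 and 14.9 CPM in unheated K2 microspores (edgeR adjusted p = 0.00485). In 49CX it had 6.81, 12.3 and 9.27 CPM in heated microspores, against 19.97, 24.2 and 8.36 CPM in unheated microspores, where the groups overlapped. BraC03g015300.1, the 4-cell gene described above, was at 0 in all heated K2 libraries and averaged 8.08 ± 7.45 CPM in unheated K2 libraries (SD, n = 3; edgeR adjusted p = 0.0268).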

How the data were processed

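Each library has 1 deposited table of raw counts per gene ID, with no normalization by the authors. The submitters' processing notes name HISAT2, HTSeq, Picard and Trim Galore; versions, strand setting, build and annotation: not given in the sources used here. The 5 summary rows were removed; reads in no gene were 55.4% to 78.8% in embryo libraries and 53.4% to 85.3% elsewhere. K2 pollen replicates 2 and 3, at 0 throughout, were not used.

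CPM used library size. edgeR 4.0.16 (R 4.3.3; TMM, filterByExpr, robust quasi-likelihood, Benjamini-Hochberg over all genes tested) was run on 9 embryo and on 18 microspore libraries, after checks on simulated data, with DESeq2 1.42.0 as an alternative. Intervals are from scipy 1.17.1. The closest replicates (K2 late microspores 2 and 3, chi-square over its degrees of freedom 1.04 for 5483 genes) were kept apart. For embryo replicates this value was 2.15 to 16.3, over 125 to 3817 genes per pair. Pearson's r of log2 CPM was -0.17 to 0.40 between embryo replicates, against 0.72 to 0.91 between leaf or microspore replicates. The genes compared differed between pairs.

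Named genes were the 4 highest medians, per stage the 2 with the largest share of the stage means, the 2 highest in heated K2 microspores and the 2 on each side of every threshold. The 2 with the highest ratio of lowest embryo value to embryo median were also named, a ratio that leaves upward spread out. A rule for the 2 raised and 2 lowered most among called genes found none in the edgeR tests with the low-count filter and was applied to the K2 heat calls made without the filter. Genes named for their likeness to another, or for calls in other fits, were picked after their values were seen. The genes, lists and rules were chosen with earlier results of these data known.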

Additional observations from a re-analysis of the deposited data

How the results depend on the processing

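The list moved with its thresholds: 85 of the genes reached a median of 100 CPM, and a limit of 10 CPM in the other tissues left 111 genes. Each single library under 20 CPM left 139 (120 shared with the 200) and TMM-scaled CPM 144 (133 shared); lists made without 1 embryo library shared 175 to 184 of the 200. Requiring 0 counts in all other libraries left no gene, so that alternative gave no value.

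Stage calls among the 200 genes, 0 in each edgeR comparison, became 17 (DESeq2) and 14 (1 fit with microspores and pollen) for 4-cell over 2-cell, 1 (the same joint fit) for 8-cell over 4-cell, and 4 (no filter), 16 (DESeq2), 18 (joint fit) and 1 (without the 2 libraries highest in the pollen list, chosen after seeing the data) for 8-cell over 2-cell embryos; the cause was not tested. Without the 2 libraries highest in the pollen list, 71 of the genes were tested and 2 of all 711 tested genes were called. Leaving out each replicate gave 0 to 0, 0 to 0 and 0 to 1 calls. The 1 call came without 8-cell replicate 3, where 112 of the genes were tested and 4 of all 1382 tested genes were called. Heat calls in K2, for which no gene passed the filter, were 21 without it (planned) and then 4 to 19 without 1 library (4, 19 and 16 without heated replicates 1, 2 and 3; 7, 9 and 8 without unheated replicates 1, 2 and 3); the difference between lines had 0 to 1 (1 without unheated K2 replicate 3) and 49CX 0 to 0. Without unheated K2 replicate 3, 1789 of all 44806 genes fitted were called for the difference between the lines. The unfiltered fits without 1 library were added after seeing the data. The replicate number was treated as a name only. Correlations of deviations ran from -0.20 to 0.67 for embryo libraries of the same number and from -0.68 to 0.43 for those of other numbers. A pairing of embryo libraries by number was therefore left unresolved. With the replicate block 0 of the genes were called in the 3 stage comparisons. In the 3 microspore comparisons none passed the filter, so the block could not be read for them.

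With at least 2 counts at 6000 gene counts, 45.3, 42.3 and 61 genes were seen on average at the 2-cell, 4-cell and 8-cell stage, 0.333 in heated and 0 in unheated K2 microspores. Separated genes were also counted with 2 libraries left in 1 group, which makes any gene easier to separate. They numbered 26 to 43 (4-cell above 2-cell), 32 to 43 (below), 25 to 56 (8-cell above 4-cell) and 4 to 13 (below). Further ranges were 47 to 61 (8-cell above 2-cell), 23 to 32 (below), 50 to 70 (heated above unheated K2) and 3 to 10 (below). Shares among the background genes were not taken in these settings. Whether the higher counts are a trait of the listed genes therefore cannot be read. Library-size scaling moved the median log2 fold change of all tested genes for 8-cell over 4-cell embryos from 0.33 to 0.03.

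Depth limits these results. In 2-cell replicate 3 and 4-cell replicate 1 a gene at 50 CPM has less than 1 count on average. Outside embryos a gene had a median of 20 counts over 25 libraries, so a missing call shows neither that the stages are alike nor that heat left a gene unaltered.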

Other observations

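Genes with neighbouring IDs did not share a pattern as a rule. Among the 200 genes, 15 pairs had IDs within 50 of each other, 4 of them consecutive (IDs run in steps of 10), and Spearman's rho over the 9 embryo libraries had a median of 0.05 in the 15 pairs, against 0.083 over all 19900 pairs of the 200 genes. BraC02g034310.1 and BraC02g034320.1 had the highest value of the 15, at 0.85. BraC08g021030.1 and BraC08g021050.1 had the lowest, at -0.78: BraC08g021030.1 stood at 123, 109 and 332 CPM in 2-cell embryos, 0, 31.9 and 27.0 CPM in 4-cell embryos and 85.2, 13.4 and 95.1 CPM in 8-cell embryos, whereas BraC08g021050.1 was lowest in the 2-cell stage. These genes were picked out after their values were seen.

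A pattern that ran across the stages was shared by BraC02g034310.1, BraC02g034320.1 and BraC04g025830.1, also picked out after their values were seen. BraC04g025830.1 had 11.7, 2006 and 1329 CPM in 2-cell embryos, 585, 63.8 and 377 CPM in 4-cell embryos and 199, 992 and 864 CPM in 8-cell embryos, with a rho of 0.983 to BraC02g034310.1 and 0.917 to BraC02g034320.1. The libraries low in all 3 genes, 2-cell replicate 1, 4-cell replicate 2 and 8-cell replicate 1, had pollen list shares of 0.348%, 0.932% and 0.320%. Of the other 6 embryo libraries, 8-cell replicate 2 was at 0.905% and the rest at 4.11% to 15.2%. In the pollen library itself BraC02g034310.1 and BraC02g034320.1 had 0 counts, and the choice held BraC04g025830.1 under 20 CPM there. The part of pollen RNA in this pattern was not tested.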
